A study of Mus musculus with 14 samples.

Results

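Clcn5 is the X-linked gene of an endosomal chloride and proton exchanger, and it carries a group of microRNA hairpins inside it. A microRNA is a short RNA that binds messenger RNAs, mainly through bases 2 to 8 of its own sequence, the seed, and lowers their translation or stability. MicroRNAs that lie in a host gene can be cut from the host's transcript, and neighbours in a cluster can then be made from a common precursor, although each mature product also has its own processing and stability. On the assay card used here 7 of 375 microRNA assays measured products of this group: mmu-miR-500, mmu-miR-501-3p, mmu-miR-362-3p, mmu-miR-188-5p, mmu-miR-532-3p and mmu-miR-532-5p by mouse name and rno-miR-532-5p, a separate assay by rat name. The mouse prefix is left out below. They were taken by assay name, and the set was chosen from the heart and lymphocyte levels that follow. Every value and difference below is therefore a description. No single member's p-value is printed, and counts of members past a threshold are descriptions too.

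The mice were 8 to 10 weeks old and received a heart from another mouse. Allogeneic grafts were BALB/c hearts placed in C57BL/6 recipients and are labelled as rejected, whereas for syngeneic grafts donor and recipient were both C57BL/6 and the label is not rejected. Whole grafts taken on day 7 gave 3 allogeneic and 3 syngeneic arrays, beside 1 array of normal BALB/c hearts. Lymphocytes that had entered the grafts (GIL) were collected on day 5 for another 3 allogeneic and 3 syngeneic arrays, beside 1 array of peripheral blood mononuclear cells (PBMC) from untreated C57BL/6 animals. Every array was a TaqMan card run on RNA of 3 pooled animals, so n counts pools. Between allogeneic and syngeneic samples the strain of the heart goes with the group, and the effects of strain and rejection cannot be told apart. The normal hearts were of the strain of the allogeneic grafts and not of the syngeneic ones.

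In the mouse assembly GRCm38.p6 the 5 hairpins lie on the minus strand of chromosome X within 10.8 kb, inside the span of Clcn5 (7153810 to 7319358). In the direction of transcription the order is Mir532 (7248402 to 7248497), Mir188 (7247989 to 7248056), Mir362 (7241982 to 7242046), Mir501 (7241243 to 7241351) and Mir500 (7237683 to 7237774). Mir532 and Mir188 are 345 bases apart and Mir362 and Mir501 are 630 bases apart, and the longest gap, 5942 bases, falls between Mir188 and Mir362. RefSeq lists 2 starts of Clcn5. One lies 70.9 kb upstream of Mir532, and the other begins 49.0 kb downstream of Mir500, so that a transcript from it would not hold the hairpins. The tables used here give gene spans and no exons, and the intron named for the cluster was not checked.

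The mature sequences from RefSeq show which members could bind the same targets, and 5 of the 7 assays were matched. Capitals mark the seed, and each sequence is written 5′ to 3′. The card's miR-500 assay names no arm, and it is shown with the 3p arm, to which the plain name belonged in earlier naming.
miR-532-3p: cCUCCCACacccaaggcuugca
miR-188-5p: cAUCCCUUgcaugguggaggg
miR-362-3p: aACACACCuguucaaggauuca
miR-501-3p: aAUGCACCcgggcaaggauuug
miR-500-3p: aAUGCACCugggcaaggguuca

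miR-500-3p and miR-501-3p had the same seed, AUGCACC, and no other mature mouse microRNA in the table had it. They matched at 18 of 22 positions, and counted from the 5′ end with miR-500-3p first the differences were U9C, G18A, C21U and A22G. All 4 lie outside the seed. The seed of miR-362-3p, ACACACC, was shared with miR-329-3p, and that of miR-188-5p, AUCCCUU, with miR-7061-3p. The seed of miR-532-3p, CUCCCAC, was found in no other entry. The cluster therefore carries 4 different seeds among these 5 products, and 1 of them occurs in 2 neighbouring hairpins.

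PCR gives a threshold cycle (Ct), which is lower where the RNA is more abundant. Levels below are log2 values, minus the Ct after subtraction of the array's mean over the microRNA assays found on all 7 arrays of its table, 210 in hearts and 137 in lymphocytes. A difference of 1 in level is a 2-fold change in abundance. Wells with no Ct are called undetermined and were set to Ct 35. Primers differ between assays, so that levels were compared between arrays and not between microRNAs. Heart arrays detected 228 to 260 microRNA assays, and lymphocyte arrays 161 to 221. The array that stood apart was allogeneic GIL pool 3, with 161 assays detected and a reference mean of Ct 28.0, where the other lymphocyte arrays had 23.2 to 25.8.

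In whole hearts the mean level of each of the cluster's assays was higher in allogeneic than in syngeneic grafts. The difference was positive for 7 of 7, with a median of 0.89 on the log2 scale, where the median over all 238 assays tested was 0.02. It was 2.09 for miR-500 and 1.13 for miR-362-3p, and 0.53 to 0.89 for miR-188-5p and the 3 assays of miR-532. The limma fit called 2 of the 7 higher, miR-500 and miR-362-3p, where 17.2% of all tested assays were called higher. Allogeneic and syngeneic values did not overlap for 4 of 7, where 26.6% of assays were separated in that direction. The members were selected on these levels, and nothing is read from either count. In a whole graft, more cells that make a microRNA and more of it per cell cannot be told apart.

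miR-500, from the hairpin farthest downstream, differed most among the members detected on every heart array. Its Ct was 23.33, 22.95 and 23.32 in allogeneic hearts, 23.92, 25.51 and 26.22 in syngeneic hearts and 27.00 in normal hearts. The levels were -0.14, 0.14 and 0.16 in allogeneic hearts, -1.52, -2.15 and -2.44 in syngeneic hearts and -3.13 in normal hearts. The groups did not overlap, and the allogeneic pools lay closer together than the syngeneic ones. The difference between allogeneic and syngeneic hearts was 2.09 ± 0.29 (SE, n = 3 pools each), or 4.27-fold. Allogeneic hearts were 3.18 ± 0.41 above the normal array and syngeneic hearts 1.09 ± 0.41 above it.

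miR-362-3p had levels of -2.37, -2.16 and -2.93 in allogeneic hearts, -3.38, -3.60 and -3.88 in syngeneic hearts and -4.10 in normal hearts. Each allogeneic pool was above each syngeneic pool, and each syngeneic pool was above the normal array. The allogeneic hearts exceeded the syngeneic by 1.13 ± 0.28, or 2.19-fold. This call was lost when allogeneic pool 1 (1.07), syngeneic pool 2 (1.14) or syngeneic pool 3 (1.00) was left out, and when levels were scaled to the control RNA MammU6 (1.01) or to the median reference assay (0.87). It was lost too with all assays tested (1.13) and with the day of the run as a fixed term (0.84), and held in 13 of 20 alternatives.

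**Figure D1:**
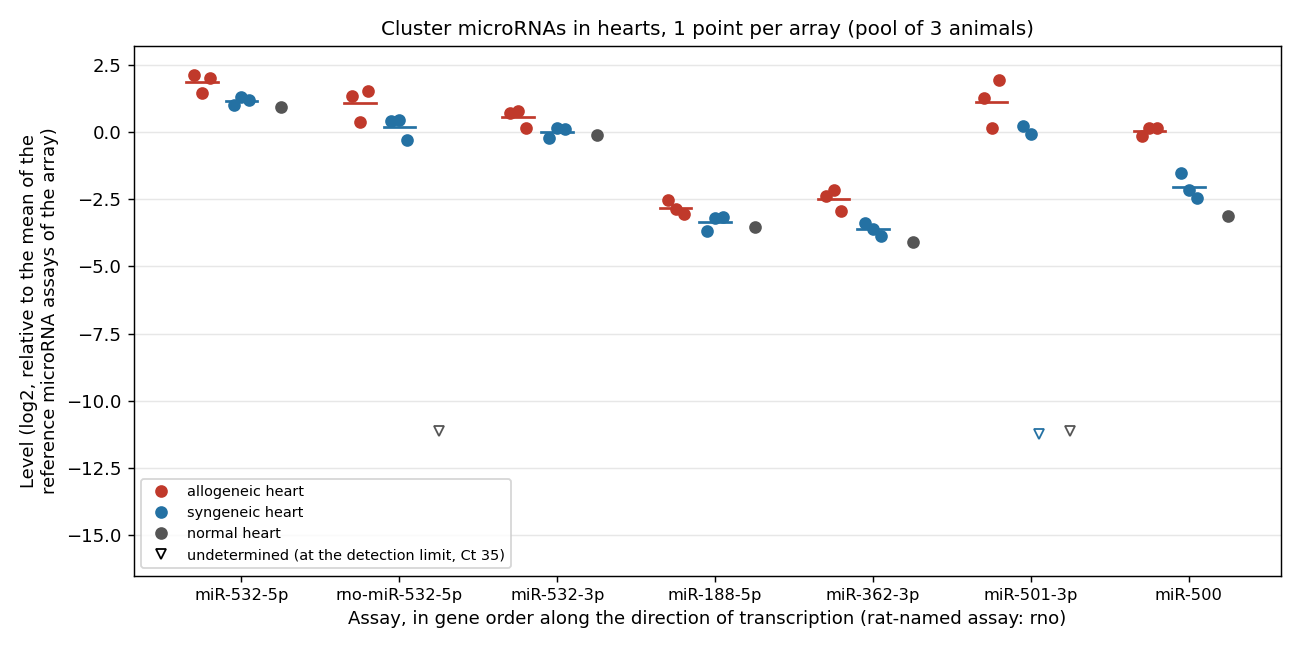
Level of each assay on each heart array, on a log2 scale relative to the mean of 210 reference assays, for allogeneic, syngeneic and normal hearts. Filled points are arrays with a Ct, open triangles are undetermined wells at the detection limit, and bars are means of groups with a Ct on every array. The 3 allogeneic pools of miR-500 sit at -0.14 to 0.16, above the syngeneic pools at -2.44 to -1.52.

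miR-501-3p, which has the seed of miR-500, had a Ct of 21.93, 22.96 and 21.56 in allogeneic hearts. Syngeneic hearts had a Ct of 22.19 and 23.44 in pools 1 and 2, and the well of pool 3 was undetermined, as was that of normal hearts. Levels were 1.26, 0.13 and 1.93 in allogeneic hearts and 0.21 and -0.07 in the syngeneic pools with a Ct, so that the groups overlapped. With the undetermined well at the limit the difference was 4.80 ± 2.96, and without syngeneic pool 3 it was 1.04. The difference of allogeneic hearts from the undetermined normal well is set by the value put in its place, being 12.24 with that well at Ct 35, 9.25 at Ct 32 and 17.26 at Ct 40. In the authors' deposited table the relative quantity of allogeneic pool 3 was 517766, with the normal well at Ct 40. An early Ct on some arrays with an undetermined well on another was seen in 17 of the 178 heart assays that had a Ct under 25 at least once (9.55%). miR-501-3p and the rat-named miR-532-5p were among these 17.

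The hairpins nearest to the upstream start gave the smaller differences in this fit, though the order was not stable. With the day of the run as a fixed term, miR-532-5p was at 0.89 by the mouse-named and 1.00 by the rat-named assay. There miR-362-3p was at 0.84 and miR-500 at 1.85. miR-188-5p, which restrains bone formation from mouse marrow stromal cells, had levels of -2.53, -2.85 and -3.06 in allogeneic hearts, -3.69, -3.19 and -3.16 in syngeneic hearts and -3.53 in normal hearts. The allogeneic and syngeneic ranges lay side by side without overlap, and the difference was 0.54 ± 0.26. miR-188-3p, the other arm and the only further assay of the cluster on the card, was undetermined on 14 of 14 arrays.

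miR-532 was read by 3 assays. miR-532-5p by its mouse-named assay had levels of 2.12, 1.44 and 1.99 in allogeneic hearts, 1.01, 1.31 and 1.18 in syngeneic hearts and 0.92 in normal hearts. There was no overlap, and the difference was 0.68 ± 0.26. miR-532-3p, the opposite arm of the same hairpin, had 0.71, 0.78 and 0.14 in allogeneic hearts, -0.21, 0.14 and 0.11 in syngeneic hearts and -0.10 in normal hearts. Allogeneic pool 3 fell among the syngeneic pools, and the difference was 0.53 ± 0.26.

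The rat-named miR-532-5p assay had levels of 1.35, 0.38 and 1.52 in allogeneic hearts and 0.42, 0.45 and -0.31 in syngeneic hearts. Allogeneic pool 2 lay within the syngeneic range, and the difference was 0.89 ± 0.39. The well of syngeneic pool 3, at Ct 24.08, carried a quality mark of the instrument software. In normal hearts the rat-named assay was undetermined while the mouse-named assay had a Ct of 22.95.

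Read along the gene, the heart differences were 0.68 and 0.53 for the arms of miR-532 by mouse-named assays and 0.89 by the rat-named one, 0.54 for miR-188-5p and 1.13 for miR-362-3p. They were 4.80 for miR-501-3p, or 1.04 without syngeneic pool 3, and 2.09 for miR-500 at the downstream end. The differences thus did not climb steadily along the gene. The same differences can be written as gaps between assays of an array, which no scaling enters. They restate the values above relative to miR-532-3p and add no separate evidence. The level of miR-500 minus that of miR-532-3p was -0.85, -0.63 and 0.02 in allogeneic hearts, -1.32, -2.29 and -2.55 in syngeneic hearts and -3.03 in normal hearts. The groups did not overlap, and this gap was 1.57 ± 0.46 higher in allogeneic hearts.

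The gap of miR-362-3p to miR-532-3p was -3.07, -2.94 and -3.07 in allogeneic hearts, -3.18, -3.74 and -3.99 in syngeneic hearts and -4.00 in normal hearts. It was 0.61 ± 0.24 higher in allogeneic hearts, without overlap. For miR-188-5p the same gap differed by 0.01 ± 0.15, with -3.35 ± 0.24 in allogeneic and -3.36 ± 0.11 in syngeneic hearts (SD, n = 3 each). For the mouse-named miR-532-5p it differed by 0.15 ± 0.35. In all, 2 of the 5 members compared with miR-532-3p were separated upward in this way, where 11.4% of 219 assays were.

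**Figure D2:**
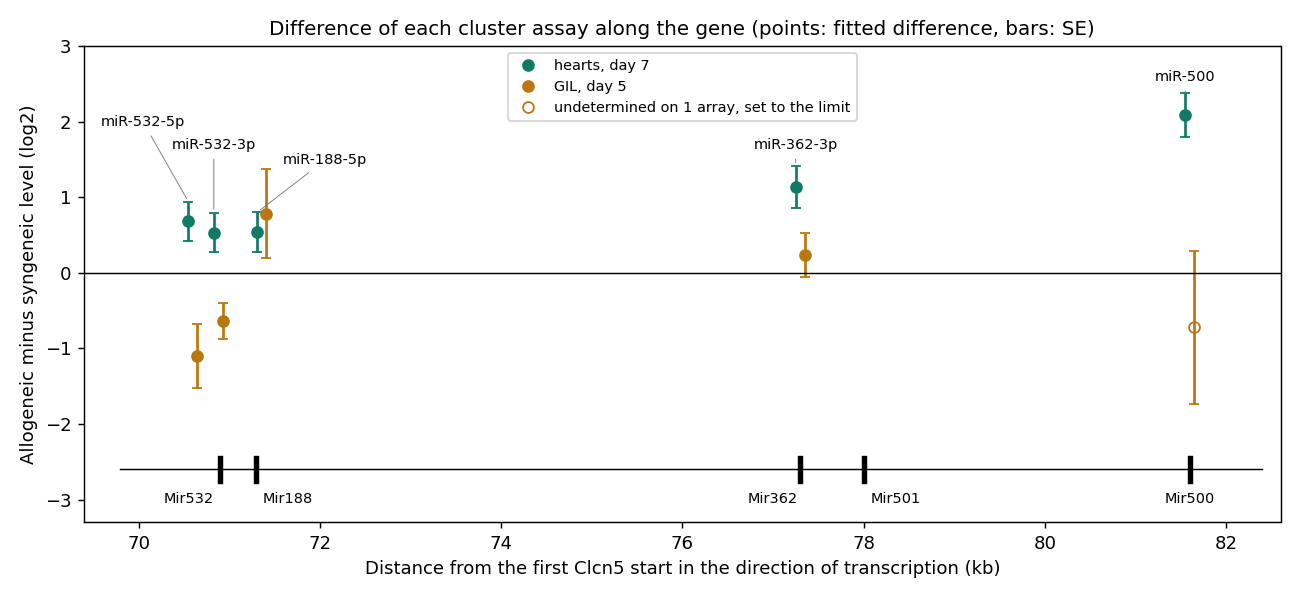
Allogeneic minus syngeneic level (log2, points with SE bars) against distance in kb from the first Clcn5 start in the direction of transcription, for hearts and GIL. Points are shifted slightly from their hairpin (black ticks) to keep them apart. miR-501-3p and the rat-named assay (0.89 in hearts), which were undetermined in normal hearts, are left out. The open GIL point is miR-500, undetermined in allogeneic pool 3 and set to the limit. The heart values shown run from 0.53 to 0.68 at Mir532, by mouse-named assays only, and reach 2.09 at Mir500.

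Against the lone normal heart array, 7 of 7 assays were higher in allogeneic hearts, by 0.64 (miR-532-3p) to 3.18 (miR-500) for those with a Ct there. The fit called 4 of the 7 higher, where 26.1% of 241 assays were called. They were miR-500, miR-362-3p, miR-501-3p and the rat-named miR-532-5p. The last 2 were tested only because allogeneic hearts had a Ct, their normal well being undetermined and set to Ct 35, and nothing is read from the count. In syngeneic hearts 6 assays were tested against the same array and 1 was called higher, the rat-named assay, where 11.6% of 242 assays were called. Its normal well was undetermined too, so that this call rests on the value put in its place. miR-188-5p (0.18 ± 0.37), miR-532-3p (0.12 ± 0.37) and miR-532-5p (0.25 ± 0.36) of syngeneic hearts were within 1 SE of normal hearts. Syngeneic and normal hearts also differed in strain, so that strain and transplantation cannot be told apart between them. Both comparisons share the normal array, whose spread was taken from the other groups.

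Of the 58 other X-linked assays on the card, 22 were tested between allogeneic and syngeneic hearts, with a median difference of -0.50. Of these 3 were called higher and 5 lower, where 17.2% of all assays were called higher and 15.1% lower, and a difference from the cluster was not tested. That list holds miR-223, a myeloid microRNA that is also among the leukocyte markers.

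The 5 members detected on every heart array went up and down together across the 7 arrays, with a Pearson r of 0.64 to 0.94 for their 10 pairs (median 0.78). Arrays of a group share their condition, and the r contains the difference between groups. Of 205 other assays, those most like the members' mean level were miR-7a (r = 0.995), miR-130b (0.979) and miR-210, which hypoxia induces (0.979). The median r over the 205 was -0.200, and all are descriptions over 7 arrays.

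Markers of cell types differed between the groups in hearts, though not every marker of a list went the same way. Of 5 leukocyte microRNAs 2 were called higher (median difference 1.02, range -0.49 to 1.64), and miR-150 was lower in allogeneic hearts. The summed leukocyte level was 7.83 to 8.26 in allogeneic, 7.11 to 7.57 in syngeneic and 6.68 in normal hearts. Of 6 cardiac muscle microRNAs 5 were called lower (median -1.60), with a summed level of 9.13 to 9.47 in allogeneic, 10.54 to 11.27 in syngeneic and 12.18 in normal hearts. All 5 leukocyte and all 6 muscle markers had a Ct on each heart array. Of 2 erythroid markers 1 was called higher (range of differences -0.16 to 3.99), and 2 of 2 endothelial and 2 of 2 tested fibroblast markers were called lower. Their part in the cluster's differences was not tested.

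Some heart arrays were run on different days. Allogeneic pool 1 shared its day with syngeneic pool 1, and allogeneic pool 3 with syngeneic pool 2. Within these days miR-500 was 1.38 and 2.31 higher in the allogeneic pool, and miR-362-3p 1.01 and 0.67. miR-188-5p was 1.17 and 0.13 higher, miR-532-5p 1.11 and 0.68, and miR-532-3p 0.91 and 0.00. When the day of the run entered the fit as a fixed term, which leaves these 4 arrays to decide the difference, 0 of 7 members were called by limma, and 2 of 238 assays in all. The fitted differences were then 1.85 for miR-500, 0.84 for miR-362-3p and 0.45 to 1.52 for the other members.

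In lymphocytes from the grafts the members' differences had both signs. The limma fit called 0 of the 5 members tested between allogeneic and syngeneic GIL, where 36.3% of 201 assays were called one way or the other, and 2 of the 5 had an unadjusted p under 0.05, as had 50.7% of all assays. Both assays of Mir532 detected throughout were lower in allogeneic GIL and did not overlap with syngeneic GIL, a separation that 33.3% of assays had. The median difference of the 5 members was -0.64, and that of all 201 assays was -0.24.

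miR-532-5p had a Ct on every lymphocyte array and levels of 0.16, 0.09 and -1.04 in allogeneic GIL, 1.30, 0.51 and 0.70 in syngeneic GIL and 0.96 in PBMC. The 3 allogeneic pools were below all others, and pool 3 was the lowest. The difference was -1.10 ± 0.42, and -0.71 without allogeneic pool 3. miR-532-3p had -0.97, -1.49 and -1.02 in allogeneic GIL, -0.44, -0.46 and -0.66 in syngeneic GIL and -0.27 in PBMC, a difference of -0.64 ± 0.24. The sign of this difference turned under scaling to MammU6 (0.18), to snoRNA202 (0.25) and to snoRNA135 with snoRNA202 (0.01), and under these 3 settings miR-532-5p was at -0.28, -0.21 and -0.45. The median over all assays moved with them, and was 0.58, 0.65 and 0.41 under these settings.

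**Figure D3:**
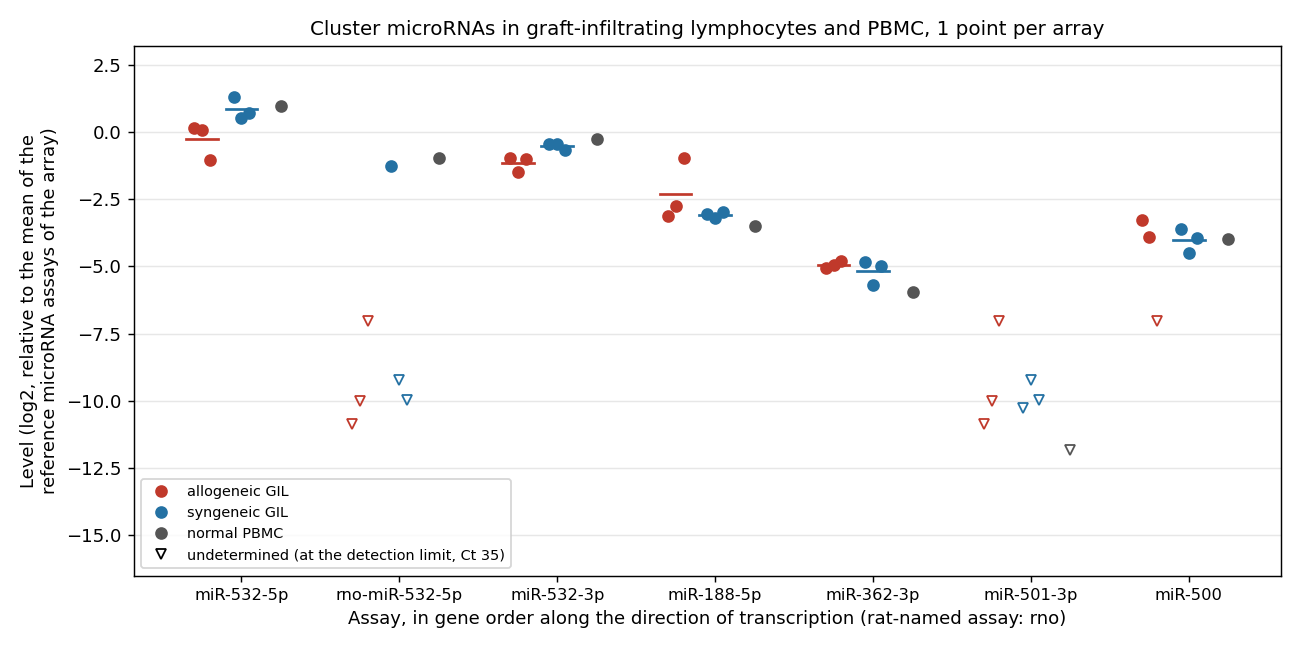
Level of each assay on each lymphocyte array, on a log2 scale relative to the mean of 137 reference assays, for allogeneic GIL, syngeneic GIL and normal PBMC. Filled points are arrays with a Ct, open triangles are undetermined wells at the detection limit, which differs between arrays, and bars are means of groups with a Ct on every array. miR-501-3p is undetermined on all 7 arrays, and the allogeneic pools of miR-532-5p sit at -1.04 to 0.16, below the syngeneic pools at 0.51 to 1.30.

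miR-188-5p had levels of -3.14, -2.77 and -0.98 in allogeneic GIL, -3.04, -3.20 and -2.99 in syngeneic GIL and -3.51 in PBMC. Allogeneic pool 3 stood apart from the other 2, and the difference was 0.78 ± 0.59 with it and 0.12 without it. miR-362-3p had -5.07, -4.94 and -4.79 in allogeneic GIL, -4.85, -5.68 and -4.97 in syngeneic GIL and -5.96 in PBMC. These groups overlapped, and the difference was 0.23 ± 0.29.

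miR-500, the member with the widest separation in hearts, was late in lymphocytes. Its Ct was 27.39 and 28.93 in allogeneic GIL pools 1 and 2 and undetermined in pool 3, 28.35, 30.29 and 28.96 in syngeneic GIL, and 27.15 in PBMC. Levels were -3.26 and -3.92 in the allogeneic pools with a Ct, -3.62, -4.51 and -3.93 in syngeneic GIL and -3.97 in PBMC, and the groups overlapped. The difference was -0.72 ± 1.01 with the undetermined well at the limit and 0.43 without pool 3, so that its sign rests on 1 well.

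miR-501-3p was undetermined on 7 of 7 lymphocyte arrays, although 5 of 7 heart arrays had read it at Ct 21.56 to 23.44. The rat-named miR-532-5p assay had a Ct in syngeneic GIL pool 1 (25.99) and in PBMC (24.15) and was undetermined on the other 5 arrays, on which the mouse-named assay read 23.97 to 28.99. Of 148 lymphocyte assays with a Ct under 25 on some array, 31 were undetermined on another (20.9%). Neither assay was tested between allogeneic and syngeneic GIL.

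Against PBMC the fit called 0 of 6 members tested in allogeneic GIL, where 58.0% of 212 assays were called, and 0 of 6 in syngeneic GIL, where 60.7% of 229 assays were called. At an unadjusted p under 0.05 there was 1 member in allogeneic GIL, where 64.2% of assays passed, and 0 in syngeneic GIL, where 67.7% passed. The differences of allogeneic GIL from PBMC were 1.21 ± 0.84 for miR-188-5p, 1.02 ± 0.42 for miR-362-3p, -0.89 ± 0.34 for miR-532-3p and -1.23 ± 0.60 for miR-532-5p. In syngeneic GIL the same values were 0.43 ± 0.85, 0.79 ± 0.43, -0.25 ± 0.35 and -0.13 ± 0.61. The lone PBMC array serves both comparisons, and the spread around it was assumed to be that of the GIL groups.

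In lymphocytes the gaps to miR-532-3p of miR-362-3p, and of miR-500 in the pools with a Ct, were higher in allogeneic GIL. There miR-532-3p itself was lower (-0.64) and miR-362-3p differed by 0.23, whereas in hearts miR-532-3p was higher (0.53). A higher gap in GIL thus includes the lower miR-532-3p. The level of miR-362-3p minus that of miR-532-3p was -4.10, -3.45 and -3.78 in allogeneic GIL, -4.41, -5.22 and -4.31 in syngeneic GIL and -5.69 in PBMC, which put it 0.87 ± 0.34 higher in allogeneic GIL. For miR-500 it was -2.29 and -2.43 in the allogeneic pools with a Ct, -3.18, -4.05 and -3.27 in syngeneic GIL and -3.70 in PBMC, or 1.14 ± 0.29 higher. For miR-188-5p it was -2.17, -1.28 and 0.03 in allogeneic GIL, -2.61, -2.73 and -2.33 in syngeneic GIL and -3.24 in PBMC. In allogeneic pool 3 the undetermined miR-500 stood at the limit, a level of -7.05, and miR-532-3p at -1.02. That would put the miR-500 gap of this pool below every syngeneic one, so with it the groups overlap. The gaps of miR-362-3p and miR-188-5p did not overlap between allogeneic and syngeneic GIL, nor did that of miR-500 in the pools with a Ct. Such a separation was common in this table, where 51.7% of 151 assays had it, miR-362-3p and miR-188-5p among them.

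**Figure D4:**
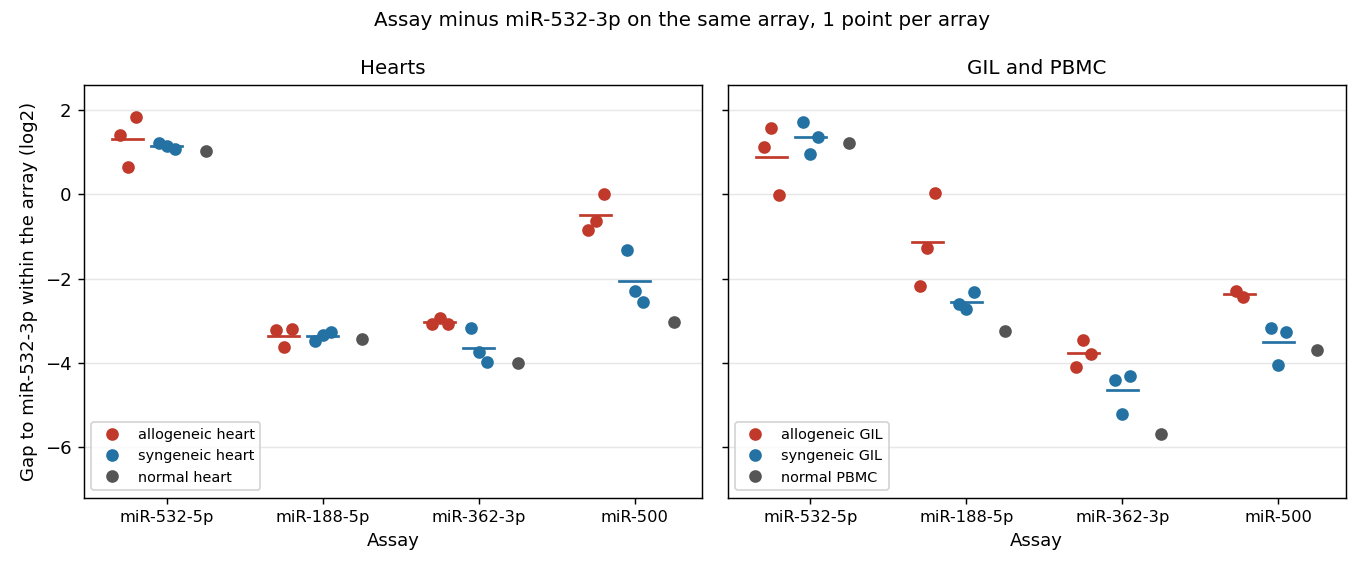
Level of each assay minus that of miR-532-3p on the same array (log2), 1 point per array and bars at group means, for allogeneic, syngeneic and normal hearts (left) and allogeneic GIL, syngeneic GIL and PBMC (right). miR-500 has no point for allogeneic GIL pool 3, where it was undetermined. The miR-500 gap is -0.85 to 0.02 in allogeneic hearts, above -2.55 to -1.32 in syngeneic hearts, while that of miR-188-5p lies near -3.35 in both.

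Across the lymphocyte arrays the 4 members detected throughout did not all vary together, with a Pearson r of -0.86 to 0.66 for their 6 pairs. The positive pairs were the arms of miR-532 (0.66) and miR-362-3p with miR-188-5p (0.58). The pair at -0.86 was miR-188-5p and miR-532-5p. Allogeneic GIL pool 3 held the highest level of the former (-0.98) and the lowest of the latter (-1.04). The assays most like the mean of the 4 members were miR-146b (r = 0.625), the rat-named miR-207 (0.541) and the rat-named miR-351 (0.478), out of 133 candidates with a median of -0.108. Of the other X-linked assays 20 were tested, with 2 called higher and 8 lower in allogeneic GIL and a median difference of -1.34. Of all assays 12.4% were called higher and 23.9% lower.

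The summed leukocyte level was 5.91 to 6.53 in allogeneic GIL, 5.27 to 6.07 in syngeneic GIL and 8.53 in PBMC. The summed cardiac muscle level was 5.18 to 6.45 in allogeneic GIL, 3.78 to 4.47 in syngeneic GIL and -3.67 in PBMC, so that heart RNA markers were read in both GIL groups and more in allogeneic GIL. All 5 leukocyte markers had a Ct on every lymphocyte array, whereas miR-208b, which is made in heart muscle, was undetermined on all 7. Of the lists, 2 of 5 leukocyte and 2 of 3 tested muscle markers were called higher, and 3 of 3 fibroblast and 1 of 2 endothelial markers lower. The leukocyte differences had both signs, from -0.83 to 1.98. Their part in the members' values was not tested. No run day held both GIL groups, so that day and group cannot be told apart there.

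Scaling moved the heart and lymphocyte differences unequally. Over 6 scalings miR-500 in hearts stayed between 1.83 and 2.25 and was called under all of them. miR-362-3p in hearts ranged over 0.87 to 1.29, miR-188-5p over 0.28 to 0.69, miR-532-5p over 0.42 to 0.83 and miR-532-3p over 0.13 to 0.68. The median over all heart assays was between -0.24 and 0.18. In GIL miR-362-3p ranged over 0.23 to 1.19 and miR-188-5p over 0.78 to 1.67, both above 0 in each case, while miR-500 and miR-532-3p took both signs. miR-532-5p stayed below 0, at -1.10 to -0.21. The median over all GIL assays moved as well, between -0.24 and 0.65. With a single array left out, miR-362-3p in GIL fell as low as -0.02 and miR-188-5p as low as 0.12. The deposited relative quantities rest on snoRNA202 and a normal array at 1. For miR-500 in the authors' deposited table they were 9.55, 14.5 and 18.5 in allogeneic hearts and 4.49, 2.51 and 2.13 in syngeneic hearts.

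**Figure D5:**
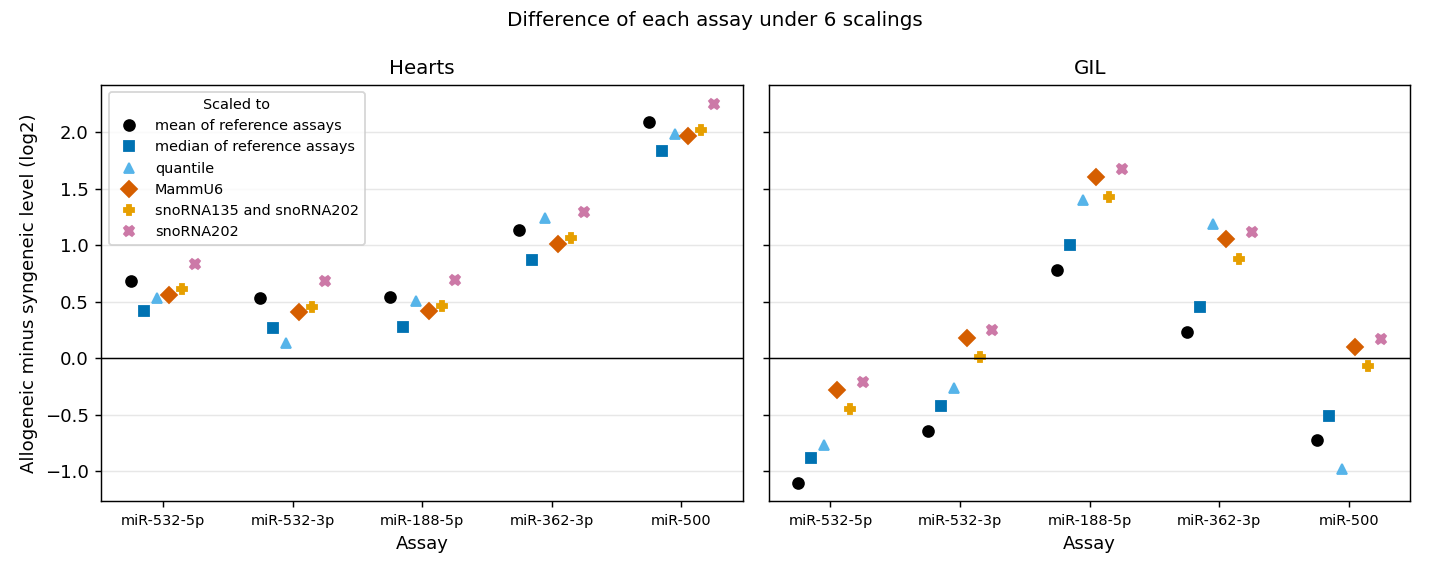
Allogeneic minus syngeneic level (log2) of 5 assays in hearts (left) and GIL (right) under 6 ways of scaling the arrays, each a symbol. All heart values are above 0 and miR-500 lies between 1.83 and 2.25, whereas the GIL values of miR-532-3p run from -0.64 to 0.25.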

How the data were processed

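Ct values of 14 TaqMan card arrays were read from both deposited tables, which the authors exported from SDS 2.4, per the file headers. The deposited delta Ct is a log2 value against snoRNA202, as recomputed from the Ct values. The relative quantity in the authors' files is a fold ratio over the normal array and was taken as deposited. Thresholds and baselines are not given in the sources used here. Total RNA was preamplified before PCR, per the labels' protocols.

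Ct values of 35 or more and undetermined wells took the value 35. The model for levels was limma's (version 3.58.1, R version 4.3.3), by lmFit and eBayes with 3 groups in each table. An assay was tested when detected on every array of at least 1 compared group, and a call needed an adjusted p under 0.05 (Benjamini-Hochberg, all tested assays). The fit was tested on simulated data. SE of within-array gaps came from the group SDs. The labels do not say that pools of a group held different animals, so tests measure the spread between pools, and the number of arrays limits precision. A let-7b well of allogeneic heart pool 2 had a malformed array name and was left out (1 well). Chromosome X was assigned by mouse name through RefSeq (311 of 375 assays matched). Replicate numbers were checked as pairs by correlating same-numbered deviations.

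The members, marker lists and the rule for named assays (all members and cluster assays, the 3 most similar assays per table, markers and controls) were chosen with earlier results of these data known. Alternatives covered scaling, detection limit, filter, spread, arrays left out, the replicate block and run day, and the random run-day block for hearts was added after seeing the data.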

Additional observations from a re-analysis of the deposited data

Results flagged for a closer look

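Both arms of miR-532 lay on opposite sides of the syngeneic mean in the 2 tables. Every allogeneic heart pool was above the mean of syngeneic hearts, and every allogeneic GIL pool was below the mean of syngeneic GIL. For miR-532-3p the differences were 0.53 in hearts and -0.64 in GIL, which are 1.17 apart. For miR-532-5p by the mouse-named assay they were 0.68 in hearts and -1.10 in GIL, which are 1.78 apart. The heart groups overlapped for miR-532-3p, where allogeneic pool 3 and syngeneic pool 2 were both at 0.14. The difference between the tables was not tested, the tables were scaled separately, and the GIL sign of miR-532-3p turned under 3 of 5 other scalings. Hearts were taken on day 7 and GIL on day 5, and no run day held both GIL groups.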

How the results depend on the processing

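In hearts the count of members called was 2. It was 1 when scaled to MammU6, 1 when scaled to the median reference assay, 1 with all assays tested and 0 where the run day was a fixed block. With a single array left out it ranged from 1 to 4, being 1 without allogeneic pool 1, syngeneic pool 2 or syngeneic pool 3, and 4 without allogeneic pool 2, when both miR-532-5p assays were added. In GIL it was 0, also with each array left out (0 to 0), and 1 with only assays detected on every array, miR-532-5p. With the replicate block 2 members were called in hearts and 0 in GIL. The deviations of same-numbered pools had correlations of -0.04, -0.29 and 0.12 in hearts and 0.19, 0.23 and -0.16 in GIL. So few pools per group cannot settle whether the numbers pair them. The block moved the calls over all assays to 46 of 238 in hearts and 55 of 201 in GIL, against 77 and 73 without it. Of 138 heart differences of the 7 members under the other settings, 138 were above 0. Of 94 in GIL, 44 were above 0 and 50 below. Both tallies are refits of the same arrays for members selected on these levels, and they add no separate evidence. The random block for run day, added after seeing the data in hearts, kept 2 and 0 calls. Causes of these changes were not tested. The fixed block rests on 4 arrays. Detection limits the late assays of allogeneic GIL pool 3, where the limit stood at a level of -7.05.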
